A study of Mus musculus with 8 samples.

Results

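Mouse embryonic fibroblasts that lack both Stat5a and Stat5b were stimulated with growth hormone (GH) and compared with the same null cells left without it. These are 4 of the 8 arrays of the series, chosen by their titles: 2 arrays of null cells with GH and 2 without. The other 4 arrays, 2 with GH and 2 without, come from control fibroblasts whose titles call them wild type, and serve here as the reference response. All cells are labelled C57BL/6 and passage 13. Every group was starved for 5 hours, after which GH at 1 ug/ml was or was not added for 2 hours. The sources used here give neither how Stat5a and Stat5b were deleted nor whether the null cells are 1 line or several. The study's title concerns STAT5 as a brake on proliferation through Cdkn2b and Cdkn1a. The arrays are labelled biological replicates 2 and 3 in each group. Because no label states that replicates stem from different embryos or cultures, a p-value here measures only the spread between the arrays, which may be technical.

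GH acts through a cell-surface receptor bound to the kinase JAK2. Activated JAK2 phosphorylates STAT5a and STAT5b, which enter the nucleus and switch on genes such as Cish, Socs2, Socs3 and, above all in liver, Igf1. The receptor can also signal through STAT3, the ERK kinases and SRC family kinases. NF-kappaB is a family of transcription factors (RelA, RelB, c-Rel and the products of Nfkb1 and Nfkb2) held in the cytoplasm by inhibitors of the IkappaB family. Cytokines and microbial products release it, and in fibroblasts it drives chemokines, adhesion molecules and its own inhibitors.

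The values are log2 RMA expression values as deposited, so a difference of 1 is a 2-fold change. Stat5a measured 5.73 and 5.59 in the null arrays without GH and 5.57 and 5.84 in those with GH, below the quartile mark of 6.097 that cuts off the dimmest genes, called the first quartile from here on. Its control group means were 7.49 without GH and 7.62 with it. Stat5b measured 7.31 and 7.33 without GH and 6.93 and 7.05 with GH in null cells, against control means of 8.02 and 7.93. The files do not say whether these probe sets lie in the deleted part of each gene. Replicate arrays of null cells correlated at 0.998, and null arrays with GH correlated with those without at 0.991 to 0.992. The 12 fibroblast markers were bright in every null array, with a log2 of their summed signal of 17.51 to 17.58, and 1 was called, Fap, lower with GH, a call lost with array medians set equal, after a second quantile normalisation, and without either null array of the cells without GH or null array 3 of the cells with GH. The 12 macrophage and leukocyte markers summed to 10.91 to 11 in null cells without GH and 10.92 to 10.95 with GH, and 0 of 12 were called by limma (1 at an unadjusted p below 0.05). In control cells the same 12 markers summed to 14.66 to 14.76 without GH and 14.61 to 14.72 with GH. Of these 12, 3 lay below the first quartile in null cells without GH, 6 in null cells with GH and 0 in either control group. Among epithelial, endothelial, adipocyte, muscle and neural markers, 3 of 39 measured were called in null cells, all lower (Krt18, Pparg and Tubb3). Over all genes 11.7% were called, 6.35% lower, and these marker counts lie near those shares. The Krt18 call was lost with array medians set equal, after a second quantile normalisation, and without any 1 null array. In a bulk sample, fewer cells of a type and less RNA per cell cannot be told apart.

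The genes that rose most in null cells included chemokines and NF-kappaB inhibitors, and the promoters of 5 of them are shown because each holds a match to the NF-kappaB motif. Socs3 is shown beside them as a GH feedback gene that was not called in null cells and whose promoter holds a match to the STAT motif. Sequences are the 250 bases before the RefSeq start on GRCm38.p6, read 5′ to 3′ on the gene's strand. Capitals mark NF-kappaB matches in the first 5 and the STAT match in Socs3. The windows are chr5:90890995-90891244 on the plus strand for Cxcl1 and chr5:90903649-90903898 on the plus strand for Cxcl2. They are chr5:92348890-92349139 on the minus strand for Cxcl10, chr17:45555450-45555699 on the plus strand for Nfkbie, chr10:19015411-19015660 on the minus strand for Tnfaip3 and chr11:117969367-117969616 on the minus strand for Socs3.
Cxcl1: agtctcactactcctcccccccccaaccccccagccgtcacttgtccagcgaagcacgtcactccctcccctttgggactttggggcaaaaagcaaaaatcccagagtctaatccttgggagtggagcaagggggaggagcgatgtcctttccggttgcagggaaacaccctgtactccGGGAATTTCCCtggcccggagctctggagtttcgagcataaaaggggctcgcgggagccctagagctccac
Cxcl2: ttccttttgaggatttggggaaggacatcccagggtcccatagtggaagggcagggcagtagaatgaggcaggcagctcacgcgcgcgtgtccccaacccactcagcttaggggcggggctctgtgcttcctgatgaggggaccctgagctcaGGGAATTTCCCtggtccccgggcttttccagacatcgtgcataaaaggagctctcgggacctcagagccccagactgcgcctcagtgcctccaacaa
Cxcl10: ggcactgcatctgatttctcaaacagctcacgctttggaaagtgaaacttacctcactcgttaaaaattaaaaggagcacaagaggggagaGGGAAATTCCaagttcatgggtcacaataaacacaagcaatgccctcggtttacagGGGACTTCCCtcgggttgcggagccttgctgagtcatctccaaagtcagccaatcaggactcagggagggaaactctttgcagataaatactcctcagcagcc
Nfkbie: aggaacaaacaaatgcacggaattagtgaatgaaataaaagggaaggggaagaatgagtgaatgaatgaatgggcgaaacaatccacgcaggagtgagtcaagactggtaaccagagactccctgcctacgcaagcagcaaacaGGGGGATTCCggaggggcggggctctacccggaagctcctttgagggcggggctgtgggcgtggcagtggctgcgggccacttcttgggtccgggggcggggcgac
Tnfaip3: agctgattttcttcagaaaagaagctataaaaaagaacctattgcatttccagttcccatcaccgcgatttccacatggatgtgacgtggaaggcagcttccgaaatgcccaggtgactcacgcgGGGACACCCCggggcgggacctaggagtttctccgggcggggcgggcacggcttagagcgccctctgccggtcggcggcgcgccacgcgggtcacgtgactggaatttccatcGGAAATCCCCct
Socs3: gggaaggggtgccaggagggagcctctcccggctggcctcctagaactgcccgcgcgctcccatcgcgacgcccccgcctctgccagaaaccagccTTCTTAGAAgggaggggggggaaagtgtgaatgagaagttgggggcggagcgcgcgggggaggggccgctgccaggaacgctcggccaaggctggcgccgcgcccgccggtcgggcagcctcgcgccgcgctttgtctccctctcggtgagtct
In Cxcl1 and Cxcl2 the same run of letters, 71 and 97 bases before the start, holds overlapping matches on the 2 strands. The Cxcl10 matches begin 159 and 103 bases before the start, that of Nfkbie 106 bases, and those of Tnfaip3 125 and 12 bases. Tnfaip3 has 2 listed starts, of which the first was used. The STAT match of Socs3 begins 154 bases before the start. A match describes the letters and is neither a bound site nor a cause.

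Of 18193 genes tested, 2130 (11.7%) were called at an adjusted p below 0.05 in null cells, 975 higher with GH (5.36%) and 1155 lower (6.35%). The large changes were rises. At least 2-fold, 138 genes were higher (0.759%) and 20 lower (0.11%), and at least 4-fold, 35 were higher and 0 lower. The median rise among called genes was 0.52 on the log2 scale and the median fall was -0.42, beside a median over all genes of -0.07. The null arrays of the 2 groups did not overlap for 3095 genes in the higher direction (17%) and 6906 in the lower (38%). The split between rises and falls depended on scaling: 45.8% of called genes were higher as deposited, 61.2% with array medians set equal, 53.1% after a second quantile normalisation and 68.1% over single probe sets. The number called also rested on single arrays, at 984 without null array 2 and 1344 without null array 3 of the cells without GH, and 818 and 1034 without arrays 2 and 3 of the cells with GH. When a change of more than 1.5-fold was required (limma's treat), 130 genes were called higher and 15 lower. Among the 9160 probe sets with no annotated gene, which stayed out of the gene tests, 218 (2.38%) were called at least 2-fold higher with GH in null cells and 0 lower. The median of these 218 was 6.36 and 6.42 in the null arrays without GH and 7.75 and 7.75 in those with GH, and the part of this rise in the gene counts was not tested.

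The response was larger in number than that of control cells, where 476 genes (2.62%) were called, 313 higher (1.72%) and 163 lower (0.896%). The counts were closer when a change of more than 1.5-fold was required, at 145 in null and 109 in control cells. Of the 975 rises in null cells, 150 were also called higher in control cells, which is 15.4% of the null rises and 47.9% of the control rises. The difference between the 2 responses (the interaction, null minus control) was called for 938 genes (5.16%). It was positive for 515 (2.83%) and negative for 423 (2.33%). The sign does not say which cells responded more. Of the positive ones, 423 were genes called higher in null cells. Of the negative ones, 269 were called lower in null cells and 142 higher in control cells, sets that can overlap. The split into positive and negative moved to 697 and 311 with array medians set equal. The total was 585 without null array 2 of the cells without GH, 437 and 459 without null arrays 2 and 3 of the cells with GH, and 586 and 561 without control arrays 2 and 3 of the cells with GH. Without each of these 2 control arrays in turn the control response had 295 and 316 calls. The 2 responses share no array.

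**Figure D1:**
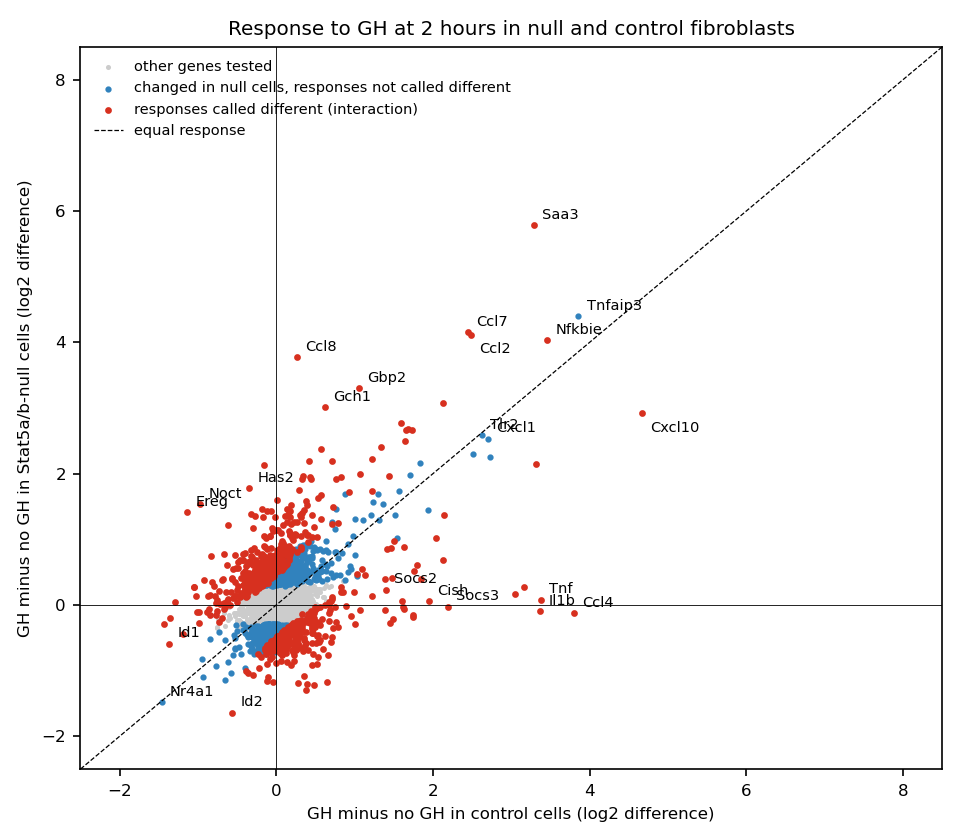
Each point is a gene, with its log2 difference between GH and no GH in control cells on the x axis and in Stat5a/b-null cells on the y axis; 13073 genes with all 4 group means at or above the first quartile are drawn. Saa3 (5.79) and Ccl8 (3.77) lie above the line of equal response, Tnfaip3 and Cxcl1 lie near it, and Cish, Socs3, Tnf, Il1b and Ccl4 lie near 0 on the y axis while rising in control cells.

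NF-kappaB subunits, their inhibitors and classical targets rose together in null cells. Of 23 measured members, 18 were called higher, where 5.36% of all genes were, and 0 lower, with a median log2 difference of 1.62, and 18 were called higher in every fit that left out 1 null array. Tnfaip3, which encodes the ubiquitin-editing inhibitor A20, measured 7.96 and 8.30 without GH and 12.64 and 12.43 with GH. That is a log2 difference of 4.40 ± 0.12 (SE, n = 2 and 2; adjusted p = 4.6e-10), and the arrays with GH lay far above those without. Nfkbie, the inhibitor IkappaB-epsilon, went from 6.93 and 6.82 to 10.96 and 10.86, a difference of 4.04 ± 0.10 (adjusted p = 2.4e-10). Nfkbiz, an atypical nuclear IkappaB, went from 9.50 and 9.41 to 12.65 and 12.41, and Bcl3, another nuclear IkappaB, from 7.83 and 7.73 to 10.05 and 10.03. The inhibitors stood among the largest rises on the arrays. Of the subunits, Relb went from 8.79 and 8.79 to 11.40 and 11.55 (2.69 ± 0.09, adjusted p = 2.7e-09). Nfkb2 rose by 2.00, Rela by 1.05 and Rel by 0.81 on the log2 scale, all called.

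Tnfaip2, an NF-kappaB target, measured 10.56 and 10.60 without GH and 13.27 and 13.21 with GH. Irf1, a transcription factor of interferon and NF-kappaB responses, rose from 9.76 and 9.86 to 12.03 and 12.20. Sod2, the mitochondrial superoxide dismutase, rose from 11.53 and 11.40 to 12.79 and 12.92. Icam1, an adhesion molecule for leukocytes, measured 5.49 and 6.34 without GH and 9.78 and 9.81 with GH, and because its level without GH lay below the first quartile no size is given. Zc3h12a, an RNase that degrades inflammatory transcripts, rose from 7.14 and 7.0 to 9.50 and 9.66 (2.50 ± 0.10, adjusted p = 1.8e-08). Stx11, a SNARE protein of secretory vesicles, rose from 7.68 and 7.66 to 10.28 and 10.39.

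5 members of the NF-kappaB list were not called in null cells, and all 5 were called higher in control cells: Tnf, Il1a, Il1b, Traf1 and Nfkbid, named here after their values were seen. Tnf measured 6.69 and 7.03 without GH and 6.80 and 7.08 with GH in null cells, where the arrays overlapped. In control cells it went from 7.21 and 7.07 to 10.48 and 10.55, and the difference between the responses was -3.29 (adjusted p = 6.57e-07). Il1b measured 6.26 and 6.17, then 6.1 and 6.14 in null cells, against 6.23 and 6.19, then 9.57 and 9.59 in control cells. The control cells were also the ones with the higher macrophage and leukocyte marker signal (summed log2 14.61 to 14.76 against 10.91 to 11), and the part of that difference in these results was not tested. The list's own count in control cells was 19 of 23 called higher.

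Of 23 measured chemokines and colony stimulating factors 15 were called higher, beside 5.36% of all genes, and 0 lower, with a median of 1.29. Ccl2, a monocyte attractant, measured 10.28 and 10.32 without GH and 14.45 and 14.39 with GH, a difference of 4.12 ± 0.12 (adjusted p = 6.4e-10). Ccl7, its close relative, went from 9.51 and 9.49 to 13.62 and 13.68 (4.15 ± 0.10, adjusted p = 2.4e-10). Ccl8, also a monocyte attractant, went from 8.62 and 8.46 to 12.24 and 12.38 (3.77 ± 0.10, adjusted p = 4.4e-10). All 3 were far apart between the groups and close between replicates.

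The neutrophil attractants behaved alike in direction. Cxcl1 went from 11.21 and 10.77 to 13.61 and 13.44 (2.54 ± 0.20, adjusted p = 6.5e-06) on its brightest probe set. Its other 2 probe sets showed larger rises, of 5.32 and 7.06 on the log2 scale, from lower levels without GH (8.09 and 7.20 against 10.99). Cxcl2 was dim without GH, at 5.20 and 4.49, and reached 11.37 and 11.36 with GH, and Cxcl5 was dim at 4.87 and 4.06 and reached 9.62 and 9.54. Cxcl10, an attractant of activated T cells, went from 6.81 and 6.18 to 9.32 and 9.51 (2.92 ± 0.21, adjusted p = 2.7e-06). Csf1, the macrophage growth factor, rose from 11.71 and 11.82 to 13.70 and 13.66, and Cx3cl1, a membrane-bound chemokine, from 9.99 and 10.09 to 11.73 and 11.82. Ccl3 and Ccl4, attractants made by macrophages, were not called in null cells. Ccl4 measured 7.69 and 7.86 without GH and 7.6 and 7.70 with GH there, while in control cells it went from 8.2 and 8.21 to 12.05 and 11.96.

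**Figure D2:**
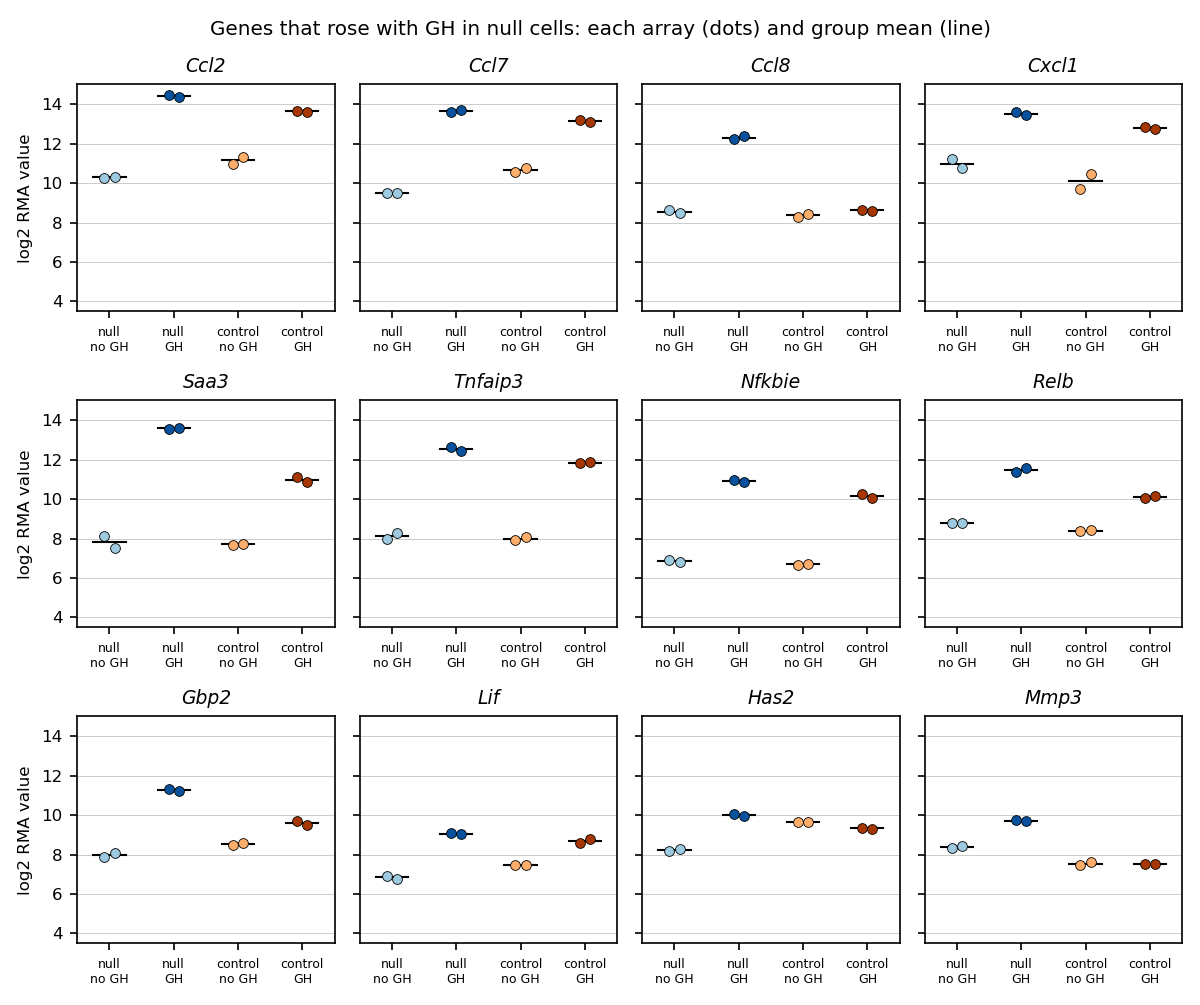
Log2 RMA values of 12 genes on each of the 8 arrays, with dots for arrays and a line for the group mean of 2. The 12 were picked as genes that rose in null cells, so there both arrays with GH lie above both without. That also held for 17% of all genes. Ccl8, Has2 and Mmp3 stay nearly level in control cells (differences of 0.26, -0.35 and -0.01, none called).

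Of 22 measured STAT3 and acute phase genes, 14 were called higher, beside 5.36% of all genes, and 0 lower (median 0.62). The largest was Saa3, a serum amyloid A protein, at 8.12 and 7.51 without GH and 13.58 and 13.63 with GH. Its difference of 5.79 ± 0.16 (adjusted p = 4.6e-10) was the largest of any gene with both null groups at or above the first quartile, each gene being read from its brightest probe set. Of 10 measured IL-6 family genes, 6 were called higher and 0 lower (median 0.72). Lif, a cytokine of this family, went from 6.90 and 6.78 to 9.10 and 9.02 (2.22 ± 0.10, adjusted p = 2.8e-08). Il6 itself was dim without GH (4.66 and 4.41) and measured 6.76 and 6.56 with GH.

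The receptor chains Osmr, Lifr and Il6ra moved in the same direction as these ligands. Osmr, the oncostatin M receptor, went from 10.07 and 10.20 to 11.66 and 11.46 (1.43 ± 0.10, adjusted p = 1.8e-06). Lifr, the LIF receptor, went from 7.93 and 8.01 to 9.20 and 8.89, and Il6ra from 9.49 and 9.28 to 10.24 and 10.48. For these 3 receptors the control response was -0.07, 0.18 and 0.07, none called, and the interaction was called (1.5, 0.89 and 0.90). For Lifr the rise and the interaction were called only on the brightest of its 3 probe sets. A dim Osmr probe set was not called. Stat3 itself rose by 0.34 ± 0.09 (adjusted p = 0.032), a call lost when any 1 null array was left out and with the replicate number as a block. Socs3, a target of STAT3 as well as STAT5, was not called (-0.02).

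Part of the interferon response moved. Of 22 measured interferon response genes, 9 were called higher, beside 5.36% of all genes, and 0 lower, with a median of 0.22. Gbp2, a guanylate-binding protein, went from 7.85 and 8.09 to 11.31 and 11.24 (3.31 ± 0.10, adjusted p = 1.9e-09). Ifit1 went from 8.22 and 8.2 to 9.48 and 9.68 and Gbp3 from 6.87 and 6.91 to 8.22 and 8.28. Mx2, Irf7, Irf9 and Oas2, which are induced by type I interferon, differed by 0.26, -0.04, 0.17 and -0.23, and none was called. Ch25h, the cholesterol 25-hydroxylase of antiviral defence, rose from 6.64 and 6.99 to 9.55 and 9.63. Gch1, which makes the cofactor of nitric oxide synthases, rose from 6.98 and 6.94 to 9.88 and 10.06 (3.01 ± 0.10, adjusted p = 2.6e-09). Ch25h and Gch1 are not members of the interferon list, within which the changes were uneven.

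Of 15 measured Toll-like receptor and endotoxin-sensing genes, 4 were called higher and 2 lower, where 5.36% and 6.35% of all genes were. Their median was -0.03. Tlr2, a receptor for bacterial lipoproteins, went from 9.17 and 9.30 to 11.80 and 11.85 (2.59 ± 0.10, adjusted p = 1.2e-08), and its interaction of -0.03 was not called. Myd88, the adaptor of most Toll-like receptors, went from 10.44 and 10.54 to 11.02 and 11.19. Cd14, a coreceptor for endotoxin, went from 9.29 and 9.07 to 9.70 and 9.88. Tlr4 differed by 0.14 and was not called. The lower calls were Tlr1 (-0.53) and Ticam1 (-0.31), and the call of Ticam1 was lost when any 1 of the 4 null arrays was left out.

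The feedback inhibitors that GH induces through STAT5 were not called in null cells. Cish, the cytokine-inducible SH2 protein, measured 7.91 and 7.88 without GH and 7.88 and 8.04 with GH, a difference of 0.06 ± 0.10 (adjusted p = 0.74). In control cells it went from 8.63 and 8.36 to 10.48 and 10.41, and the interaction was -1.88 (adjusted p = 1.74e-05). Socs3 measured 9.07 and 9.12, then 8.96 and 9.18 in null cells, and 8.44 and 8.2, then 10.48 and 10.54 in control cells, with an interaction of -2.21 (adjusted p = 5.22e-06). Socs2 measured 8.26 and 8.25, then 8.37 and 8.60 in null cells, and 9.37 and 9.50, then 10.82 and 10.84 in control cells, with an interaction of -1.17 (adjusted p = 0.00042). For Cish and Socs3 the null groups overlapped. The null difference of Socs3 (-0.02) turned to 0.02 with array medians set equal.

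Of all 8 CIS and SOCS genes, 3 were called higher in null cells, beside 5.36% of all genes, and 0 lower: Socs4 (0.47), Socs1 (0.44) and Socs7 (0.39). The count rested on single arrays: it was 0 without null array 2 of the cells without GH, 0 without array 3 of the cells with GH, and 1 without array 3 of the former or array 2 of the latter. Bcl6, a transcriptional repressor that STAT5 lowers, measured 9.53 and 9.68, then 9.74 and 9.74 in null cells (0.14, not called), while it fell by 0.87 in control cells. Igf1 measured 11.38 and 11.40, then 11.69 and 11.57 (0.24 ± 0.09, adjusted p = 0.12). Of 19 measured STAT5 and GH target genes, 4 were called higher in null cells, beside 5.36% of all genes, and 0 lower: Pim1 (0.55), Myc (0.47), Cdkn2b (0.45) and Pim2 (0.36). The count was 2 without null array 3 of the cells without GH and 1 without array 3 of the cells with GH.

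The receptor and its kinase were both present. Ghr, the GH receptor, measured 12.86 and 13.12 without GH and 13.31 and 13.14 with GH (0.24 ± 0.11, adjusted p = 0.19). Jak2 went from 9.35 and 9.58 to 10.46 and 10.22, a rise of 0.87 ± 0.11 (adjusted p = 0.00038), and its interaction of 0.75 was called. The phosphatase Ptpn1, which acts on JAK2, rose by 0.63 and the adaptor Sh2b3 by 0.61. Irs2, an adaptor of insulin signalling, fell by 0.65, a call lost without null array 2 of the cells without GH or either array of the cells with GH. Of 23 measured receptor, JAK, STAT and adaptor genes 8 were called higher and 1 lower, where 5.36% and 6.35% of all genes were. Without null arrays 2 or 3 of the cells without GH the higher calls were 3 and 4, and without arrays 2 or 3 of the cells with GH they were 3 and 4.

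**Figure D3:**
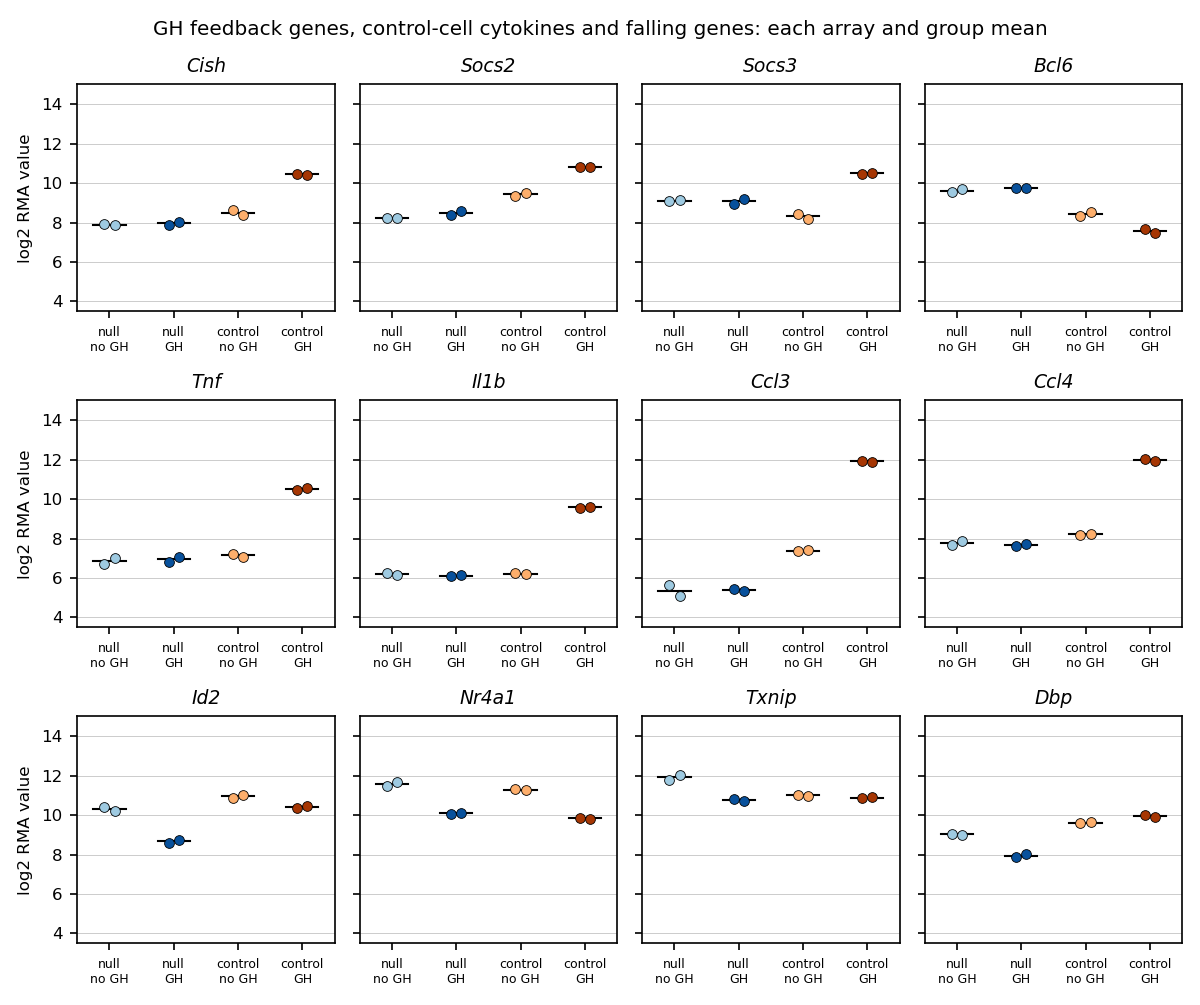
Log2 RMA values on each of the 8 arrays (dots) with group means of 2 (lines) for GH feedback genes (top), cytokines that rose in control cells (middle) and genes that fell in null cells (bottom). In null cells Cish, Socs3, Tnf, Il1b, Ccl3 and Ccl4 are not called (adjusted p of 0.434 to 0.945), while Id2, Nr4a1, Txnip and Dbp fall by 1.64, 1.48, 1.15 and 1.07.

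Early response transcription factors moved both ways. Of 12 AP-1 and related factors, 4 were called higher: Fosl1 (8.58 and 8.42 to 9.88 and 10.05), Maff (9.71 and 9.81 to 11.11 and 11.33), Jun (10.34 and 10.43 to 11.75 and 11.93) and Junb (10.32 and 10.10 to 11.33 and 11.66). Fos, the partner of the JUN proteins, was the 1 called lower, from 9.66 and 9.54 to 8.86 and 8.93 (-0.70 ± 0.13, adjusted p = 0.0038), and it was not called without null array 2 of the cells with GH. Of 26 EGR, NR4A, KLF and other early regulators, 8 were called higher and 7 lower, where 5.36% and 6.35% of all genes were. The largest rises there were Ier3, a survival gene, from 11.19 and 11.12 to 13.07 and 13.16, and Klf5, from 10.46 and 10.44 to 11.52 and 11.81. The largest falls were Nr4a1, an orphan nuclear receptor, from 11.48 and 11.66 to 10.07 and 10.10 (-1.48 ± 0.09, adjusted p = 7.4e-07), and Egr1, from 12.81 and 13.08 to 12.09 and 12.07. Zfp36 and Zfp36l1, which speed the decay of cytokine transcripts, rose by 0.97 and 1.05. In limma's fit 0 of 21 SRF and actin cytoskeleton targets and 0 of 10 heat shock genes were called. The share over all genes was 11.7%, at which lists this small hold few called members. At an unadjusted p below 0.05 the counts of these lists were 3 and 0. With the mean of a gene's probe sets they were 1 and 0.

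Matrix and protease genes rose in small numbers, where 5.36% of all genes were called higher. Has2, which makes hyaluronan, went from 8.17 and 8.29 to 10.05 and 9.97 (1.78 ± 0.09, adjusted p = 8.2e-08). Of 16 measured proteases and inhibitors 6 were called higher and 0 lower. They include the collagenase Mmp13 (6.11 and 6.34 to 8.71 and 8.54), the gelatinase Mmp9 (8.43 and 8.69 to 10.07 and 10.09) and the stromelysin Mmp3 (8.33 and 8.42 to 9.73 and 9.70). Of 25 collagens and other matrix genes 5 were called higher and 0 lower, and the count was 1 without null array 2 of the cells without GH or null array 2 of the cells with GH. Col1a1, Col1a2 and Col3a1 differed by 0.19, 0.03 and 0.11 and were not called.

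Genes of cell death and growth control changed in both directions. Fas, the death receptor, went from 7.25 and 7.38 to 9.75 and 9.63 (2.37 ± 0.10, adjusted p = 2e-08). Bid, which links death receptors to mitochondria, went from 9.60 and 9.56 to 11.19 and 11.31 (1.67 ± 0.09, adjusted p = 1.4e-07). Bmf, another BH3-only protein, fell from 8.24 and 8.34 to 7.08 and 7.10 (-1.20 ± 0.10, adjusted p = 6.7e-06). Of 13 measured BCL2 family genes 2 were called higher and 2 lower, where 5.36% and 6.35% of all genes were. The higher count was 1 without either null array of the cells without GH or null array 3 of the cells with GH, and 4 with array medians set equal, and the lower count was 1 without null array 2 of the cells with GH. Of 22 measured p53 targets 6 were called higher and 5 lower, and the higher count was 3 without null array 2 of the cells without GH or null array 3 of the cells with GH. The lower count was 3 without null array 3 of the cells without GH.

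The 2 CDK inhibitors of the study's title were measured in the same fit. Cdkn2b went from 11.29 and 11.14 to 11.62 and 11.70, a rise of 0.45 ± 0.09 (adjusted p = 0.0079), and its control response was -0.05 (not called). This call was lost without null array 3 of either group. Cdkn1a measured 9.62 and 9.52, then 9.61 and 9.80 (0.13 ± 0.10, adjusted p = 0.43), where the groups overlapped. Its control means were 13.82 and 13.92. Of the other 6 CDK inhibitors measured 4 were called lower, beside 6.35% of all genes: Cdkn1b (-0.39), Cdkn1c (-0.47), Cdkn3 (-0.49) and Cdkn2d (-0.60). Neither of the 2 Cdkn1b probe sets was called in the fit of single probe sets. The Cdkn1b call was also lost with array medians set equal and with the replicate number as a block. The lower count was 1 and 2 without null arrays 2 and 3 of the cells without GH, and 0 and 1 without arrays 2 and 3 of the cells with GH.

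Cyclins of G1 were not called, and part of the G2/M genes fell by small amounts. Ccnd1, cyclin D1, measured 11.54 and 11.52 without GH and 11.50 and 11.62 with GH. Of 26 G1 and G1/S genes, 1 was called, beside 11.7% of all genes: Cdk6, which rose from 10.86 and 10.78 to 11.46 and 11.64. Myc rose from 10.91 and 10.90 to 11.32 and 11.42 (0.47 ± 0.09, adjusted p = 0.0049), a call lost without null array 3 of the cells with GH. Of 25 measured G2/M genes 11 were called lower and 0 higher, with a median of -0.29 beside -0.07 over all genes. The largest was Cdc25b, a phosphatase that activates CDK1, from 10.05 and 10.28 to 9.58 and 9.60. The count fell to 4 and 1 without null arrays 2 and 3 of the cells without GH, to 1 and 3 without arrays 2 and 3 of the cells with GH, and to 5 with array medians set equal.

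The 15 largest falls ran from -1.07 to -1.64. Id2, an inhibitor of basic helix-loop-helix factors, went from 10.40 and 10.23 to 8.60 and 8.75 (-1.64 ± 0.10, adjusted p = 6.6e-07), and Id3 from 11.73 and 11.61 to 10.51 and 10.63 (-1.10 ± 0.09, adjusted p = 9e-06). Id1, also a BMP target, went from 10.23 and 10.04 to 9.42 and 9.67, a call lost without null array 2 of either group. Gper1, a G protein-coupled oestrogen receptor, went from 8.09 and 8.2 to 6.89 and 6.83. Ppp1r3c, which directs a phosphatase to glycogen, went from 11.26 and 11.41 to 10.14 and 10.10. Txnip, an inhibitor of thioredoxin and glucose uptake, went from 11.78 and 12.04 to 10.79 and 10.72, and Trib3, a stress-induced pseudokinase, from 9.90 and 9.87 to 8.71 and 8.77.

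The other large falls were Sybu (-1.21), Parp16 (-1.19), Efna1 (-1.17), Mterf2 (-1.17), Plcd3 (-1.10), Dbp (-1.07) and Kctd4 (-1.07). The list counts that follow stand beside 6.35% of all genes called lower and 5.36% called higher. Of 9 glucocorticoid targets 5 were called lower and 1 higher, with a median of -0.55. They were Dusp1 (12.51 and 12.59 to 11.45 and 11.59), which dephosphorylates MAP kinases, Klf9 (-0.69, lost without null array 2 of either group), Tsc22d3 (-0.59), Per1 (-0.57) and Fkbp5 (-0.55). Mt2, a metallothionein, was the 1 called higher (0.59). Of 15 measured cAMP and CREB targets 7 were called lower and 3 higher, Nr4a1, Dusp1 and Rgs2 (-0.83) being the largest falls. The higher calls, Gem, Pde4b and Sik1, fell to 1 without null array 2 of the cells without GH or null array 3 of the cells with GH. Of 18 measured clock genes 4 were called lower and 4 higher, among them Dbp, a clock output factor, at 9.05 and 9.0 without GH and 7.85 and 8.05 with GH. Clock genes called higher fell to 2 without null array 2 of the cells without GH and without either array of the cells with GH.

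**Figure D4:**
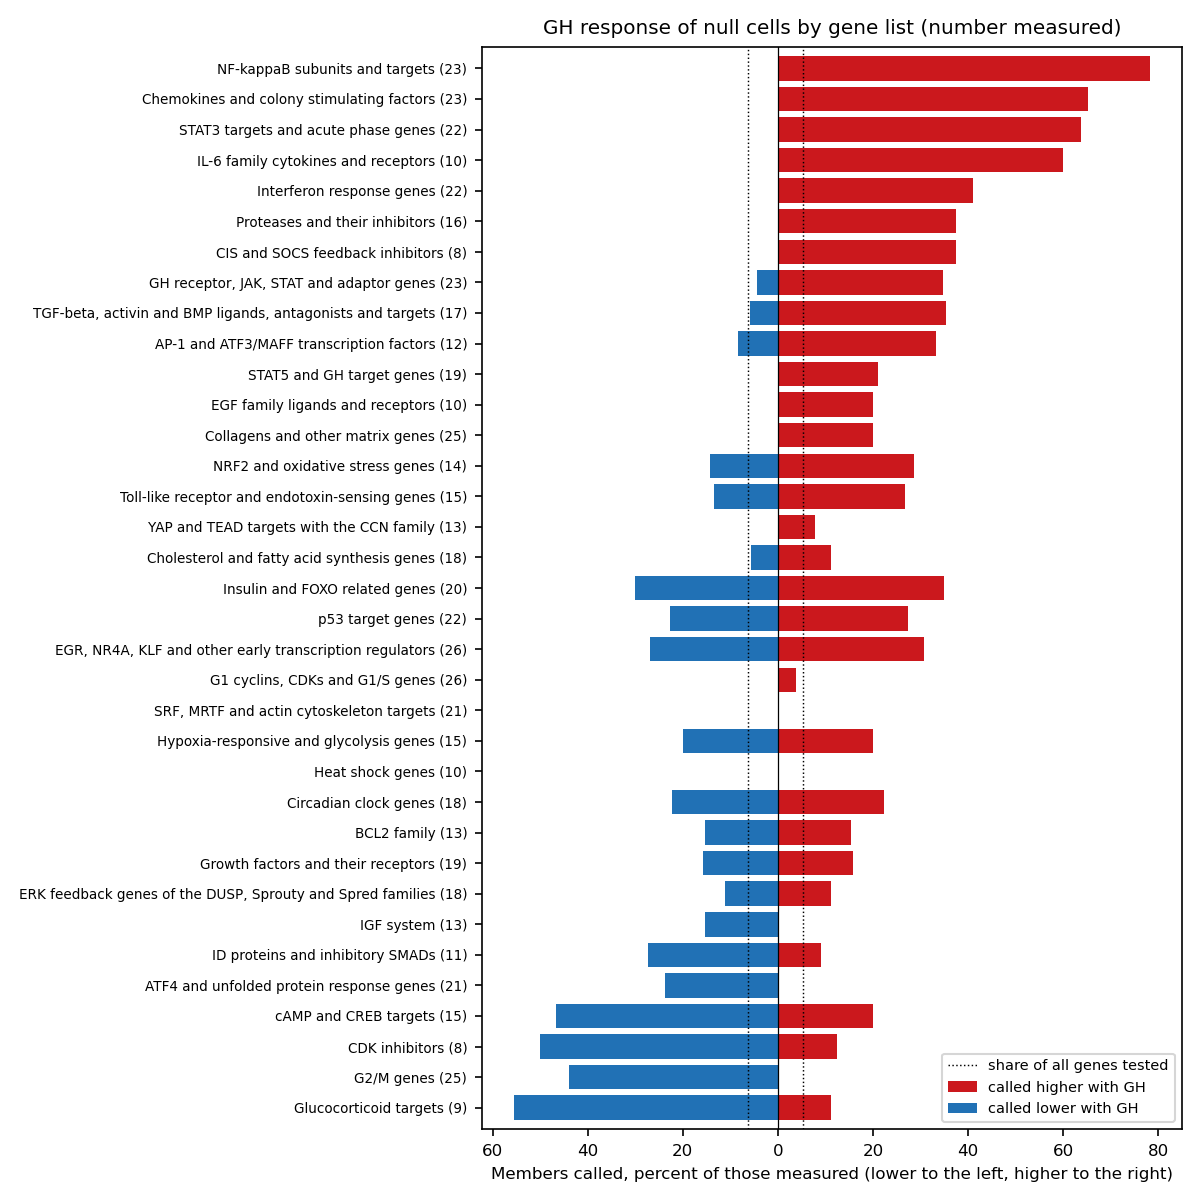
Share of measured members called higher (red, right) or lower (blue, left) with GH in null cells for each gene list, with the number measured in brackets and dotted lines at the shares over all genes tested (5.36% higher, 6.35% lower). NF-kappaB, chemokine, STAT3 and IL-6 family lists reach furthest right, and glucocorticoid, CDK inhibitor, cAMP and G2/M lists furthest left.

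Several rises were larger in null than in control cells by the interaction test. Ccl8 rose in null cells while its control difference of 0.26 was not called, and the interaction of 3.51 ± 0.14 (adjusted p = 3.5e-08) was the largest positive one among the named genes. For Saa3 the interaction was 2.50, for Gch1 2.39, for Gbp2 2.25, for Has2 2.13 and for Fas 1.80. Ereg, an EGF family ligand, rose from 8.21 and 8.44 to 9.84 and 9.65 in null cells and fell by 1.14 in control cells (interaction 2.56). Noct, a rhythmically expressed gene, rose by 1.54 in null cells and fell by 0.97 in control cells (interaction 2.51). Klf5 and Dusp4, the latter a MAP kinase phosphatase, likewise rose in null cells and fell in control cells, with interactions of 1.83 and 1.58. For Klf5 this held only on the brightest of its 3 probe sets. The others were not called in either response or in the interaction. In all, 29 genes were called higher in null and lower in control cells, and 23 the reverse.

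Other responses did not differ in the test. Tnfaip3 had an interaction of 0.55 (adjusted p = 0.096), Irf1 -0.20 (adjusted p = 0.5), Tlr2 -0.03 and Cxcl1 -0.16 (adjusted p = 0.84; 0.36 and 0.59 on its other 2 probe sets, neither called), which does not show that they were equal. Among genes that fell, Nr4a1 (-1.48 in null, -1.46 in control) and Id3 (-1.10 and -0.94) were called lower in both. Cxcl10 rose less in null than in control cells (2.92 against 4.67, interaction -1.75, adjusted p = 0.005), and so did Tnfrsf1b, a TNF receptor (0.69 against 2.13). Starting levels differed too: without GH, 8640 genes were called between null and control cells, and macrophage and leukocyte markers were among the brighter ones in control cells.

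Promoter motifs were counted in the 250 bases before the first RefSeq start, on both strands, for the genes with an entry in the table. The NF-kappaB motif occurred in 24 of 103 promoters (23.3%) of genes that rose at least 2-fold in null cells. The share was 8.7% over all 770 promoters of genes called higher, 3.6% over 917 of genes called lower, 4.35% over the 14452 genes tested and 3.75% over all 27025 promoters. The AP-1 motif TGANTCA occurred in 15.5% of the genes that rose at least 2-fold, 5.58% of genes tested and 6.87% of all promoters. The STAT motif TTCNNNGAA occurred in 12.6%, 6.3% and 7.18%, and overlaps with other motifs were allowed. The EGR motif GCGNGGGCG occurred in 9.71%, 7.45% and 4.65%, and the cAMP response element TGACGTCA in 1.94%, 2.27% and 1.62%. The CArG box was in 0 of the 103, in 1.21% of genes tested and in 1.4% of all promoters. Beside the promoters printed above, the NF-kappaB match was in the named genes Bbc3, Gch1, Ier3, Il6, Irf1, Pik3r1, Sod2 and Tlr2, which rose. It was also in Fos and Pdgfc, which fell. No test was made of these shares.

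**Figure D5:**
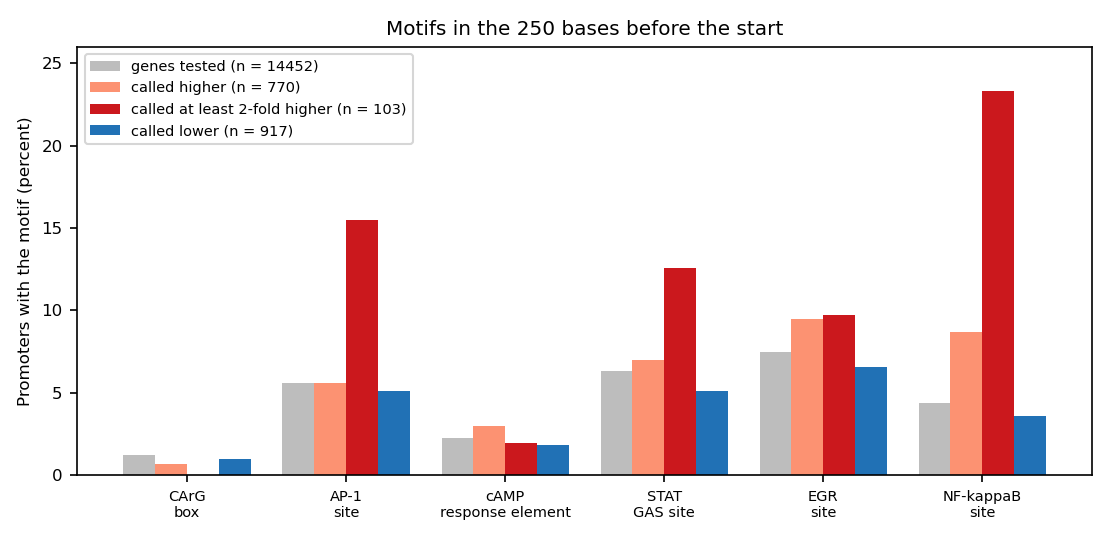
Percent of promoters (250 bases before the start) holding each motif, for genes tested, genes called higher or lower with GH in null cells, and genes called at least 2-fold higher; n is the number with a promoter entry. The NF-kappaB bar of the genes at least 2-fold higher reaches 23.3%, against 4.35% for genes tested.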

How the data were processed

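RNA of 8 samples was measured on Affymetrix arrays. The deposited values are log2 values from RMA, made with Partek 6.10.0511, per the submitters' processing notes; its settings and the genome build are nowhere stated in the sources used. RMA equalises array distributions, so a shift common to most genes is removed, and it gives no detection call. Of 45101 probe sets 64 controls were left out, and 34945 of the rest carried 1 gene, 932 several and 9160 none. Symbols were updated for 34741 through the GRCm38.p6 gene table and 204 kept the annotated name. The probe set with the highest mean stood for each of 18193 genes, of which 9010 had several. Among named genes the probe sets of a gene were never called in opposite directions, but their sizes differed by over 1 on the log2 scale for Cxcl1, Hivep3, Id2, Klf5, Lif, Lifr, Nfkbiz, Osmr, Pde4b, Sod2, Tnfaip2 and Tnfaip3.

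A single fit over all 8 arrays took a mean for each group (limma 3.58.1, R 4.3.3), with 4 residual degrees of freedom and 7.82 prior ones; the median residual SD was 0.0971 on the log2 scale. A gene was called where its p, adjusted by Benjamini and Hochberg over all genes, was below 0.05, and every adjusted p is limma's, two-sided. The number of arrays limits the precision. Where a null group mean lay below the first quartile (6.097), no size is given in the results, and the range given for Stat5a beside the alternatives shows its sign only; the interaction is not given where any of the 4 group means did. Members of lists are described by counts and medians, with no set test. The members and lists were chosen with earlier results of these data known, so a list's count is not independent evidence.

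Genes were named by rule: the 20 largest rises and 15 largest falls; up to 8 dim genes each way; up to 5 called members each way of each list; a fixed set of GH pathway genes; and the 10 largest interactions each way. Other list members named were chosen after their values were seen. For 1 null array without GH the source label says 3 and the title 2; the title was used. Alternatives were the scaling, the probe set rule, the filter, the variance trend, a 1.5-fold requirement, the null arrays alone, a replicate block and leaving out each array. Promoter sequences are from RefSeq (GRCm38.p6). The fit was tested on simulated data. Figures were drawn with matplotlib 3.10.9.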

Additional observations from a re-analysis of the deposited data

Results flagged for a closer look

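The response to GH differed between null and control cells by limma's interaction test for 938 genes, of which 113 fall under the naming rule. Differences in log2, null response minus control response, were positive for Ccl8 (3.51), Ereg (2.56), Noct (2.51), Saa3 (2.50), Gch1 (2.39), C130075A20Rik (2.29), Gbp2 (2.25), Has2 (2.13), Klf5 (1.83), Fas (1.80), Ccl2 (1.64), Bcl6 (1.01), Jak2 (0.75), Myc (0.57) and Cdkn2b (0.49). They were negative for Socs3 (-2.21), Cish (-1.88), Efna1 (-1.81), Cxcl10 (-1.75), Ppp1r3c (-1.70), Gper1 (-1.66), Bmf (-1.59), Parp16 (-1.47), Nlrp3 (-1.46), Tnfrsf1b (-1.45), Fam110a (-1.43), Dbp (-1.43) and Socs2 (-1.17). The difference for Cdkn2b lay just under the threshold, at an adjusted p of 0.0482 in limma's interaction test. The control arrays also had the higher macrophage and leukocyte marker signal, with 0 of 12 markers below the first quartile against 3 and 6 of 12 in the null groups, and its part in these differences was not tested.

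Probe sets that the gene tests do not use also carried signal. Of 10092 with no gene or several genes, 224 were called at least 2-fold higher with GH in null cells and 1 lower. Of the 9160 with no gene, 2.38% were at least 2-fold higher in null cells and 0.218% in control cells. Among the brightest probe set of each gene these shares were 0.759% and 0.577%.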

How the results depend on the processing

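The number of genes called in null cells was 2130, and 4877 over single probe sets, 145 when more than 1.5-fold was required and 818 to 2409 with 1 array left out. In control cells it was 476, and 807, 109 and 295 to 460. For the interaction it was 938, and 2469, 90 and 437 to 872. With the 1.5-fold requirement the counts called were 9 for STAT3 and acute phase genes (14), 3 for IL-6 family genes (6), 0 for G2/M genes (11) and 0 for CIS and SOCS genes (3). The G2/M count was 5 with medians set equal, 7 with the mean of a gene's probe sets and 1 to 12 with 1 array left out. The CIS and SOCS count was 1 with the mean of probe sets and 0 to 3 with 1 array left out. The cause of these moves was not tested, beyond fewer arrays or more probe sets in the fit. Uncalled differences near 0 turned sign: Socs3 to 0.019 with medians equal, and with 1 array left out Socs3 ranged from -0.133 to 0.086, Cish from -0.017 to 0.145 and Ccnd1 from -0.036 to 0.084. Stat5a, dim in both null groups so that only the sign is read, ranged from -0.091 to 0.179. Of 194 named genes called, 118 stayed called in every fit followed for them and 76 lost the call in at least 1. These fits were the replicate blocks, the null arrays alone, the mean of probe sets, the rescalings and leaving out each array. The filter, the variance trend and the 1.5-fold requirement were not among them. Apart from Hivep3, which was dim without GH, the largest difference that lost its call was that of Fos (-0.70).

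The replicate numbers did not pair the arrays: deviations of same-numbered null arrays correlated at -0.157 and of control arrays at -0.279. With a replicate block 1713 genes were called in null cells, 427 in control cells and 754 in the interaction. A crossed pairing, added after the data were seen, gave 2559, 553 and 1164.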

Other observations

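Several gene families not described above also moved in null cells. They were chosen after their values were seen, so their counts are descriptions. Across all genes 5.36% were called higher and 6.35% lower. Of 9 measured guanylate-binding proteins and immunity-related GTPases, which attack intracellular microbes, 7 were called higher with GH, among them Gbp6 (1.5), Irgm2 (1.23), Irgm1 (1.17) and Gbp7 (1.01). Of 8 leukocyte adhesion molecules 5 were called higher, including Vcam1 (1.95) and Selp (1.35), and Sele, an endothelial selectin that was dim without GH (5.50 and 5.45), measured 8.64 and 8.47 with GH. All 3 HIVEP zinc finger genes were called higher, Hivep1 by 1.95 and Hivep2 by 1.59. Of the 5 Hivep3 probe sets only the brightest was called, and it was dim without GH. The others differed by -0.037, -0.12, -0.109 and 0.023, none called. The Hivep3 call was lost with the mean of its probe sets. Of 8 immunoproteasome and peptide loading genes 4 were called higher, Psmb10 (1.26) and Tapbpl (0.86) most, while Psmb9 (-0.07) and Tap1 (-0.04) were not called.

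Both chains of the interferon-gamma receptor were called higher, Ifngr1 by 1.07 and Ifngr2 by 1.09, whereas Ifnar1 (0.21) and Ifnar2 (0.09) of the type I receptor were not called. Among 8 iron and metal transport genes Slc11a2 (1.92), Slc39a14 (1.02) and Tfrc (0.41) were called higher, and Slc40a1 (-1.04) and Slc39a8 (-0.36) lower. Of 7 prostaglandin genes Ptgs2 (1.36) and Ptges (0.90), which make prostaglandin E, were called higher and the prostaglandin F receptor Ptgfr (-1.03) lower.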
